A study of Mus musculus with 56 samples.

Results

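Most of the genes described here encode subunits of the mitochondrial respiratory chain and ATP synthase that are made from nuclear DNA. They were chosen by symbol alone, as genes whose names begin with Nduf followed by a, b, c, s or v and a digit (complex I, except Ndufa4 and Ndufa4l2, which are counted with complex IV, where Ndufa4 is now placed), Sdha to Sdhd (complex II), names that begin with Uqcr (complex III), Cox4 to Cox8 followed by a letter (complex IV), or Atp5 (complex V, the ATP synthase), without assembly factors named Ndufaf and without symbols marked as pseudogenes. The rule found 86 of the 22864 genes listed, and 85 of them passed the filter of a mean of at least 1 TPM that left 13869 genes for testing. TPM is the number of reads per base of gene length, brought to a common total across libraries. The member below the filter was Cox7b2, a testis isoform of complex IV, with a mean of 0.27 TPM and 0 reads in 8 libraries. The rule also took in 3 genes annotated as processed pseudogenes (Ndufs6b, Ndufb4c and Cox6c2), whose reads can be shared with Ndufs6, Ndufb4 and Cox6c, so their values are uncertain. Atp5s, which RefSeq names Dmac2l, was counted with complex V by its symbol. The symbols of Cyc1 and Ndufab1 did not match the rule, and these genes stand in the list of electron carriers and entry points.

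The RNA came from hearts of female C57BL/6J mice, 9 weeks old, that had food for 7 days only in the light phase (daytime-restricted feeding, DRF) or only in the dark phase (nighttime-restricted feeding, NRF, the reference). The labels name no engineered allele, and all mice lived in a cycle of 12 h light and 12 h dark. Each regimen was sampled at 7 times of day, given as zeitgeber time (ZT, with lights on at ZT0), every 4 h from ZT0 to ZT24, with 4 numbered replicates at each, which made 14 groups and 56 libraries. The labels do not say that each library was a separate animal, so the p-values measure the spread between these samples. Recovered reads per library ranged from 29527844 to 53421005. The 6 cardiomyocyte markers summed to 17648 to 29634 TPM in every library, and no marker of the list was at 0, whereas the 5 atrial markers ranged from 94.2 to 5436 TPM and the 5 erythroid markers from 1667 to 66737 TPM, so the amount of atrial tissue and of blood RNA was uneven between libraries. The atrial sum had a median of 1785 TPM under DRF and 604 TPM under NRF. The median log2 difference over the day was 1.16, and 1 of 5 markers was called higher under DRF, against 1.69% of all genes tested. After median-of-ratios rescaling, described below, 0 of 5 were called. The part of atrial tissue in the differences between regimens was not tested. In whole tissue, fewer cells of a type and less RNA per cell cannot be told apart.

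Complexes I and II pass electrons from NADH and succinate to ubiquinone, complex III passes them on to cytochrome c, and complex IV passes them to oxygen. Complexes I, III and IV pump protons, and complex V uses the proton gradient to make ATP. The heart relies on this chain for nearly all of its ATP, and several subunits of complex IV exist as paired isoforms, with the heart and skeletal muscle form in cardiomyocytes and the so-called liver form in most other cells.

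The 86 genes held 6.19% of all TPM in the median library, with a range of 5.2% to 7.3%. Complex IV contributed most, with a summed mean of 21204 TPM over its 20 members, followed by complex I with 15259 TPM over 37, complex V with 14952 TPM over 17, complex III with 8029 TPM over 8 and complex II with 2679 TPM over 4. The most abundant member was Cox6a2, the heart form of subunit 6a, at 4568 TPM. It was followed by Atp5a1 and Atp5b, the alpha and beta subunits of the catalytic head of ATP synthase, at 3026 and 2820 TPM, by Cox8b, the muscle form of subunit 8, at 2446 TPM, and by Cox4i1 at 2371 TPM. Among the members that were tested the lowest were Cox6c2 at 4.32 TPM, Cox6b2 at 6.35 TPM and Ndufb2 at 8.11 TPM. Ndufb2 overlaps Gm42420 on its own strand and Braf on the other strand, and its annotated exons span 5628 bases, so its level is uncertain. The SD within groups on the log2(TPM + 1) scale had a median of 0.118 over the 85 members, against 0.127 over the 912 genes of 100 TPM or more and 0.141 over all genes tested.

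The summed share of the members followed nearly the same course under both regimens through the light phase and diverged at night. At ZT20 the 4 DRF libraries stood at 5.2%, 5.45%, 6.17% and 5.66% of TPM, and the 4 NRF libraries at 6.53%, 6.65%, 6.95% and 6.12%. The DRF libraries were low and the groups overlapped only through DRF replicate 3 and NRF replicate 4. At the same time point the 13 subunits encoded in mitochondrial DNA, which share complexes I, III, IV and V with these proteins, held 38.6% ± 2.05 of TPM under DRF and 32.9% ± 0.81 under NRF (SD, n = 4). None of the other 6 time points showed a gap of this size in the members' share. At ZT16 the order was opposite, with 6.5% ± 0.36 under DRF and 6.03% ± 0.43 under NRF, and these groups overlapped.

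**Figure D1:**
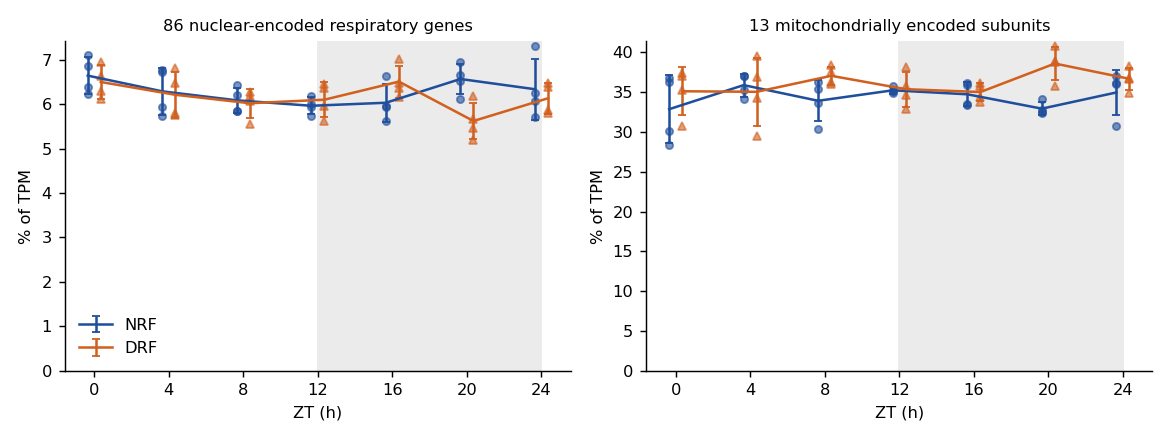
Share of all TPM held by the 86 nuclear-encoded members (left) and by the 13 mitochondrially encoded subunits (right), in percent, against ZT in hours. Points are libraries (circles NRF, triangles DRF), lines join group means and bars are the SD (n = 4); grey marks the dark phase. The members' share is lowest in the DRF libraries at ZT20, where the mitochondrially encoded share is highest.

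The first comparison asked whether the members rose and fell over the day within each regimen, by fitting a 24 h cosine and sine to log2(TPM + 1) with limma and adjusting p-values over all genes tested by the Benjamini-Hochberg method. Under NRF 27 of 85 members were rhythmic, against 37.3% of all genes tested. They fell in complex I (12 of 37), complex III (4 of 8), complex IV (8 of 19) and complex V (3 of 17). In complex II 0 of 4 passed, with adjusted p-values of 0.393 to 0.972 in limma. In a window from ZT20 to ZT2, set after the peaks were seen, 25 of the 27 had their peak, against 20.2% of the 5178 genes rhythmic under NRF. Those 25 peaks ran from ZT21.5 to ZT0.63, from the late dark phase, when NRF mice had food, to just after lights on. The exceptions were Ndufa4l2, at ZT5.88, and Ndufs6b. The swings were shallow, with a median log2 amplitude of 0.13 among those 25, and the largest among genes with more than 100 TPM was that of Atp5k, subunit e of ATP synthase, at 0.22 ± 0.04 (SE), with an adjusted p of 0.000539 in limma.

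Under DRF 4 of 85 members were rhythmic, against 32.4% of all genes tested. These were Ndufa4l2, Cox4i2, Cox6a1 and Ndufb5. Ndufa4l2 peaked at ZT5.19 ± 0.74 h, Cox4i2 at ZT5.36 ± 0.83 h, Cox6a1 at ZT7.75 ± 0.9 h and Ndufb5, an accessory subunit of the membrane arm of complex I, at ZT14.4 ± 1.16 h (SE). The Ndufb5 call was lost without DRF ZT16 replicate 4 (adjusted p = 0.0584, limma) and in 8 of 19 other settings. The fitted amplitude was smaller under DRF than under NRF for 26 of the 27 members called under NRF, which is the direction that choosing them under NRF favours. Only Ndufa4l2 was rhythmic under both regimens, against 17.7% of all genes tested, and its peak differed between them by -0.69 h. With ZT as a factor of 7 levels in place of the cosine, 11 members changed over the day under NRF, against 26.1% of all genes tested, and 16 under DRF, against 31.6%.

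A call under 1 regimen alone does not show a difference, so the time courses were tested against each other. In the cosine model 1 of 85 members differed in rhythm between regimens, against 27.7% of all genes tested. This was Ndufa5, an accessory subunit of the peripheral arm of complex I on chromosome 6 (chr6:24518666-24528013, minus strand, GRCm38), which peaked at ZT21.5 ± 0.82 h with a log2 amplitude of 0.14 ± 0.03 under NRF and had an amplitude of 0.03 ± 0.04 under DRF (adjusted p = 0.0286, limma). The call held in 53 of 56 fits that left out 1 library each, and its highest adjusted p was 0.0567, without NRF ZT8 replicate 3. Of 19 other settings 11 kept it. It was lost with TPM over nuclear genes only, with the deposited values, without replicate number 1, 3 or 4, and without ZT12, ZT20 or ZT24, with adjusted p-values of up to 0.269 in limma. Leaving out DRF ZT8 replicate 2 raised the count of members to 10, and leaving out DRF ZT20 replicate 4 took it to 0. The next smallest p-values in each complex did not pass: Ndufb10 at 0.0539 and Ndufa1 at 0.0682 in complex I, Uqcrb at 0.063 and Uqcrh at 0.0678 in complex III, Cox6a1 at 0.0646 in complex IV, and Atp5j at 0.0713 and Atp5g2 at 0.0739 in complex V (adjusted p, limma). In complex II the smallest was 0.263, for Sdha, the flavoprotein that oxidises succinate.

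With a separate mean at every ZT, 17 of 85 members differed in time course, against 22.7% of all genes tested. The smallest adjusted p-values were those of Atp5k (0.00683), Ndufb2 (0.00875) and Cox6a1 (0.0107, limma), and Ndufa5 was among the 17. After median-of-ratios rescaling, which divides each library by its median ratio to the gene means, the cosine model called 9 members (Atp5g2, Cox6a1, Ndufa1, Ndufa5, Ndufb10, Ndufb7, Ndufc1, Uqcrb and Uqcrh), against 33.2% of all genes tested.

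**Figure D2:**
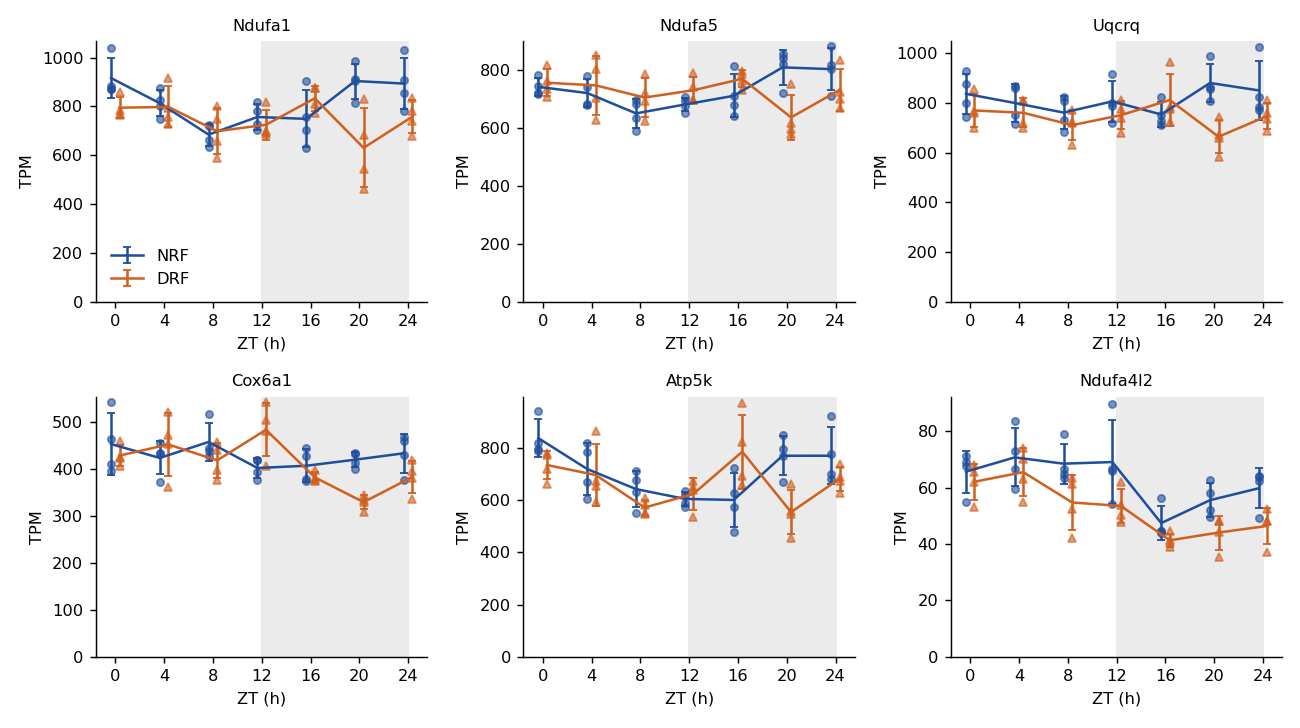
TPM of 6 members against ZT in hours under NRF (circles) and DRF (triangles), with each library as a point, group means joined by lines and SD bars (n = 4). Ndufa1, Ndufa5, Uqcrq, Cox6a1 and Atp5k have their lowest DRF mean at ZT20, below the NRF mean there, and Ndufa4l2 has its lowest mean at ZT16 under both regimens.

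The regimens were then compared at each ZT. In all, 38 of 85 members differed at 1 or more of the 7 time points, against 32.9% of all genes tested, and nearly all of these calls came from ZT20. There 35 of 85 members were lower under DRF and 0 were higher, against 11.4% of all genes tested that were lower and 3.4% that were higher. Among other protein-coding genes of 100 TPM or more, the share lower ran from 12.7% to 39% with gene length. The median difference over the 85 members was -0.23 on the log2(TPM + 1) scale, against -0.07 over all genes tested. After median-of-ratios rescaling these medians were -0.15 and -0.008. The members were read from the same libraries, so their values are not independent of each other. All 4 DRF libraries lay below all 4 NRF libraries in 30 members, against 15.3% of all genes tested. The count was 16 of 85 after median-of-ratios rescaling, against 8% of all genes tested, and 12 of 85 when mitochondrial genes were left out of the TPM sum, against 4.31%. With the deposited values as they stand it was 5, against 4.39%. Without replicate number 1 in every group the count was 7, and without replicate number 2 it was 11. With single libraries left out it was 13 without DRF ZT20 replicate 1, the library with the lowest share, 18 without NRF ZT20 replicate 3, 23 without NRF ZT20 replicate 2, and 41 without DRF ZT20 replicate 3. Marker lists of cell types were also read at ZT20. Of the 6 cardiomyocyte markers 1 was higher under DRF and 0 were lower, with a median difference of -0.03. No endothelial, pericyte and smooth muscle, immune, erythroid, adipocyte or skeletal muscle marker was called. The 5 fibroblast markers summed to 377 to 473 TPM under DRF and 471 to 551 TPM under NRF at ZT20, with 2 of 5 lower and a median difference of -0.47. The 5 atrial markers summed to 94.2 to 2613 TPM under DRF and 432 to 1585 TPM under NRF, with 0 of 5 called and a median difference of -1.98. The part of these cells in the members' calls was not tested.

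**Figure D3:**
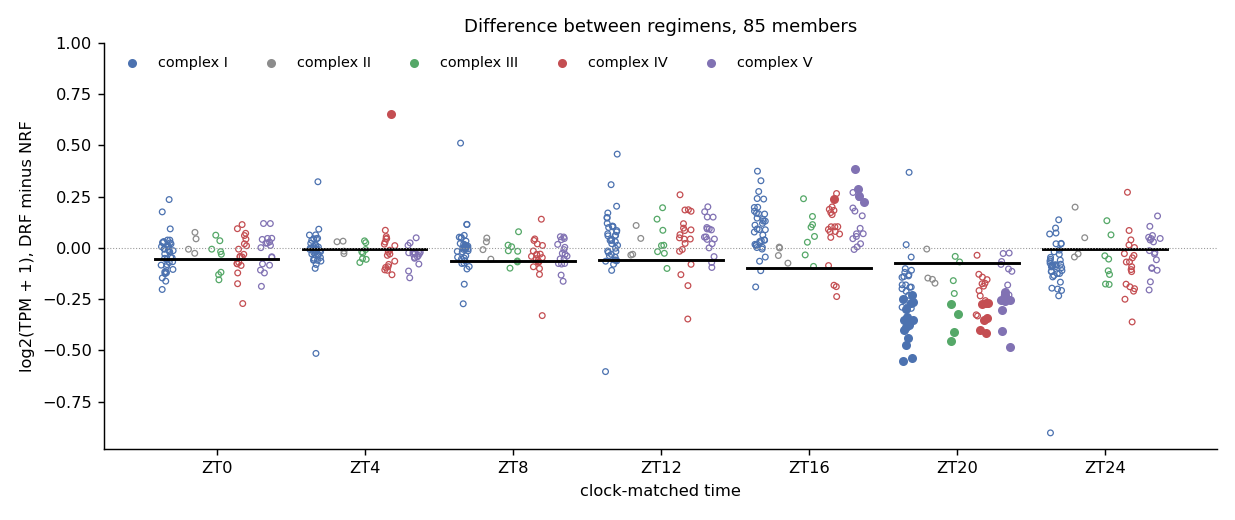
Difference between regimens in log2(TPM + 1), DRF minus NRF, for the 85 tested members at each clock-matched ZT, by complex. Filled points had an adjusted p under 0.05 in limma, open points did not, and black lines are the medians over all genes tested. The members sit around 0 from ZT0 to ZT12, above the line at ZT16 and mostly below it at ZT20, with 35 filled points.

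In complex I, 16 of 37 members were lower under DRF at ZT20. The deepest fall was that of Ndufa1, a small accessory subunit of the membrane arm encoded on the X chromosome, which read 463, 684, 831 and 543 TPM under DRF and 914, 903, 987 and 812 TPM under NRF. The DRF libraries varied more than the NRF libraries and overlapped them only through replicate 3. The difference was -0.55 ± 0.11 (SE; adjusted p = 0.000942, limma), a level 0.682 times that of NRF, and it passed without each library in turn.

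Ndufb3, another accessory subunit of the membrane arm, had the smallest adjusted p of all members (0.00016, limma). It stood at 298, 349, 423 and 322 TPM under DRF and at 489, 472, 487 and 425 TPM under NRF, and the groups did not overlap. Its difference was -0.44 ± 0.08. Ndufs6, a zinc-binding subunit required for the assembly of the peripheral arm, read 315, 477, 606 and 368 TPM under DRF and 629, 645, 651 and 562 TPM under NRF (difference -0.54 ± 0.13, adjusted p = 0.00486, limma). The call for Ndufs6 was lost without DRF ZT20 replicate 1, with an adjusted p of 0.0558. Ndufa5 read 596, 619, 752 and 580 TPM under DRF and 821, 841, 857 and 721 TPM under NRF (difference -0.35 ± 0.09, adjusted p = 0.00439, limma).

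In complex II, 0 of 4 members passed at ZT20 (2 at an unadjusted p under 0.05, both lower). Sdha read 766, 718, 846 and 847 TPM under DRF and 780, 838, 786 and 780 TPM under NRF, and the groups overlapped fully (difference -0.01 ± 0.07). Sdhb, the iron-sulfur subunit, differed by -0.15 ± 0.08, and the membrane anchors Sdhc and Sdhd by -0.15 ± 0.06 and -0.17 ± 0.07.

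In complex III, 4 of 8 members were lower under DRF at ZT20, all of them small subunits without a redox centre. Uqcrq read 582, 671, 742 and 659 TPM under DRF and 856, 865, 991 and 809 TPM under NRF, with no overlap, and differed by -0.41 ± 0.09 (adjusted p = 0.00285, limma). Uqcr11 read 796, 1111, 1294 and 882 TPM under DRF and 1396, 1445, 1562 and 1129 TPM under NRF (difference -0.45 ± 0.13, adjusted p = 0.0112, limma), and the call was lost without DRF ZT20 replicate 1, at 0.0889. Uqcr10 and Uqcrh, the hinge protein that contacts cytochrome c1, fell by 0.32 and 0.27 on the log2 scale, and neither was called after median-of-ratios rescaling. Uqcrb, which differed by -0.22 ± 0.09, did not pass (adjusted p = 0.0895, limma).

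In complex IV, 7 of 19 members were lower under DRF at ZT20. Cox8b, the muscle form of subunit 8, read 1780, 2050, 2329 and 2056 TPM under DRF and 2675, 2601, 3055 and 2487 TPM under NRF, and Cox7a1, the heart and muscle form of subunit 7a, read 1324, 1624, 1981 and 1615 TPM under DRF and 2108, 2256, 2312 and 1973 TPM under NRF. Cox8b did not overlap between regimens, and Cox7a1 overlapped by a single pair of libraries. Their differences were -0.4 ± 0.1 and -0.41 ± 0.11 (adjusted p = 0.00646 and 0.00728, limma). Cox7a1 was not called without DRF ZT20 replicate 1 (adjusted p = 0.0642, limma). Cox6a1, the liver form of subunit 6a, had tight replicates: 308, 343, 330 and 334 TPM under DRF against 412, 431, 435 and 400 TPM under NRF (difference -0.35 ± 0.09, adjusted p = 0.00802, limma). The other called members were Cox5b, Cox6c, Cox7a2 and Cox8a. Cox6a2 and Cox6b1, at means of 4568 and 1657 TPM, were not among them.

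In complex V, 8 of 17 members were lower under DRF at ZT20. Atp5k, one of the small subunits at which ATP synthase dimerises, read 453, 557, 662 and 545 TPM under DRF and 768, 795, 849 and 669 TPM under NRF. The groups did not overlap, and the difference was -0.48 ± 0.12 (adjusted p = 0.00546, limma). Atp5e, the epsilon subunit of the central stalk, differed by -0.41 ± 0.12, and Atp5j, coupling factor 6 of the peripheral stalk, by -0.26 ± 0.07 (adjusted p = 0.021 and 0.0106, limma). Both calls were lost without DRF ZT20 replicate 1, at 0.134 and 0.0529, and after median-of-ratios rescaling. Atp5a1 and Atp5b, the subunits that form the catalytic head, differed by no more than -0.07 and did not pass.

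Promoter windows from RefSeq (GRCm38.p6, 250 bases before to 50 after the start site) were matched to 68 of the 86 members and searched on both strands for the core of the NRF1 site (GCATGCG), an ETS site as bound by GABPA (CCGGAAG) and the E-box of the clock factors (CACGTG). The NRF1 core was in 10 of 68 windows (14.7%, against 3.64% of 27025 promoters), the ETS site in 15 (22.1%, against 9.12%) and the E-box in 6 (8.82%, against 7.24%). Of the 32 matched members lower at ZT20, 6 held the NRF1 core, 10 the ETS site and 3 the E-box. Of the other 36, 4 held the NRF1 core, 5 the ETS site and 3 the E-box. A match is a description of letters and not a bound site.

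Of the 4 members that were lower under DRF at ZT20 and hold both the NRF1 core and the ETS site, Atp5k, Cox6a1 and Uqcr11 are shown, since their values are given above, and Atp5l is not. Also shown is Ndufa1, which fell most and holds neither. Capitals mark the matches, and each window is read 5′ to 3′ on the minus strand.
Atp5k (chr5:108434350-108434649): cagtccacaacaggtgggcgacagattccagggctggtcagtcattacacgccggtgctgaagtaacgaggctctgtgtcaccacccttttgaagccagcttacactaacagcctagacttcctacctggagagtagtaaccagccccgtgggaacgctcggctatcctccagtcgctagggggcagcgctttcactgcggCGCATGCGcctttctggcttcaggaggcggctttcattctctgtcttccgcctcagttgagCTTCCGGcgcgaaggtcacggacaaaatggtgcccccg
Cox6a1 (chr5:115348909-115349208): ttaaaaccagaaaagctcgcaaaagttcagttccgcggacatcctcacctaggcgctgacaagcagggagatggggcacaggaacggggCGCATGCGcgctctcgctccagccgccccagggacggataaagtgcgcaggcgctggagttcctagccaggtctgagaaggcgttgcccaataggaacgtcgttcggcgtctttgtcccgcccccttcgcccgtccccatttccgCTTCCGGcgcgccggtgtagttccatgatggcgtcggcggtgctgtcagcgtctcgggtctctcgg
Uqcr11 (chr10:80406772-80407071): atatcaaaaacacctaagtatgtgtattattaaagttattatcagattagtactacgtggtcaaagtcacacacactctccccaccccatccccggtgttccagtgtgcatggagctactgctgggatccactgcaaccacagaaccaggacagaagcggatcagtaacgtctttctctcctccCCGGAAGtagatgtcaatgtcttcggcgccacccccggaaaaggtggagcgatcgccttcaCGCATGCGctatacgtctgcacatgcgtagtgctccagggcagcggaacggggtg
Ndufa1 (chrX:37191189-37191488): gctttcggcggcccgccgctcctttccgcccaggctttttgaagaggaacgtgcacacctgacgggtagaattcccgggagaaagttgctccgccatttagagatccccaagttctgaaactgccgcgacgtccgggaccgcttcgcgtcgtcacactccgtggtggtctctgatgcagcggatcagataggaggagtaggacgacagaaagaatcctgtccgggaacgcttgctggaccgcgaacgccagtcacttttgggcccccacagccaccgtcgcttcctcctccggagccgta

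The size of the ZT20 difference moved with gene length. Among the 82 protein-coding members tested, the 22 with exon lengths of up to 1000 bases had a median difference of -0.33, the 31 above that and up to 2000 bases -0.23, the 19 above that and up to 4000 bases -0.14 and the 10 longer ones -0.12. Protein-coding genes outside the list showed the same order. Those with a mean of 100 TPM or more, the range of most members, had medians of -0.29 (100 genes), -0.22 (215 genes), -0.14 (311 genes) and -0.06 (142 genes) in the same length classes. The share called lower was 39%, 34.9%, 25.1% and 12.7% among these genes and 68.2%, 38.7%, 21.1% and 40% among the members. The part that gene length has in the members' calls was not tested. The 81 genes of the mitochondrial ribosome, another set of nuclear genes with mitochondrial products, had 27 lower and 0 higher at ZT20, against 11.4% and 3.4% of all genes tested, with a median of -0.2.

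**Figure D4:**
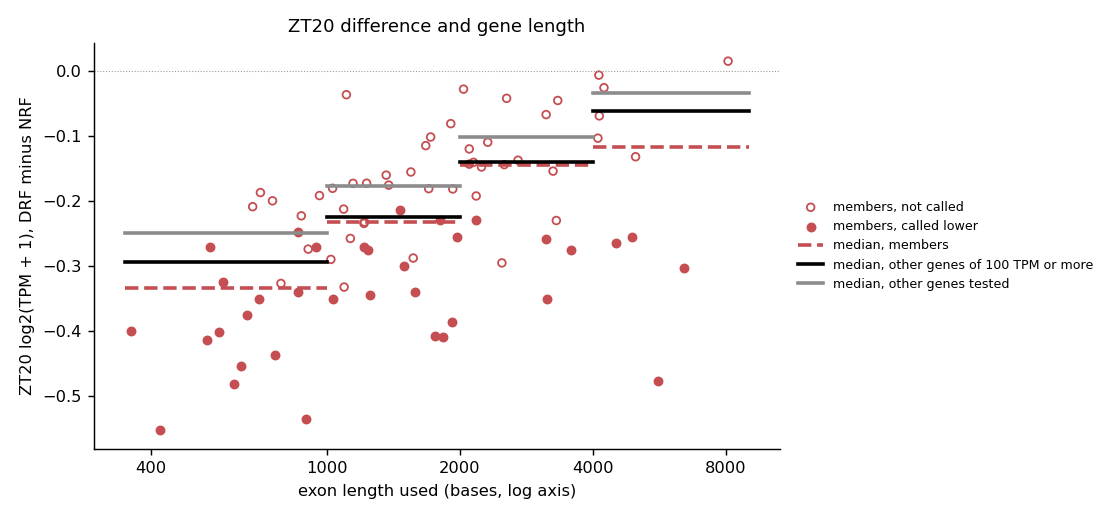
ZT20 difference in log2(TPM + 1), DRF minus NRF, against exon length in bases (log axis) for the 82 protein-coding members tested; filled points were called lower. Horizontal lines are medians per length class for the members (dashed red), other protein-coding genes of 100 TPM or more (black) and all other protein-coding genes tested (grey); each rises from the shortest to the longest class.

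At ZT16, 4 h earlier, the direction was opposite. Here 5 of 85 members were higher under DRF, against 0.663% of all genes tested, and 0 were lower, against 6.27%. The median difference over the members was 0.09, while that over all genes tested was -0.1. After median-of-ratios rescaling these medians were 0.2 and -0.002. Of the 5, 4 belonged to ATP synthase: Atp5c1, the gamma subunit that turns inside the head; Atp5g1, 1 of 3 genes for the same c-ring protein; Atp5h, of the peripheral stalk; and Atp5k. The other was Cox4i1, the main form of subunit 4 of complex IV.

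Atp5c1 read 1447, 1550, 1443 and 1739 TPM under DRF and 1276, 1320, 1345 and 1339 TPM under NRF, with no overlap, and differed by 0.22 ± 0.06 (adjusted p = 0.023, limma). Atp5h read 1172, 1281, 1178 and 1351 TPM under DRF and 958, 1030, 1072 and 1126 TPM under NRF, and Atp5g1 read 469, 466, 441 and 610 TPM under DRF and 369, 414, 405 and 428 TPM under NRF. Neither overlapped, with differences of 0.25 ± 0.07 and 0.29 ± 0.09 (adjusted p = 0.033 and 0.039, limma). Atp5k and Cox4i1 were nearer to the threshold, with adjusted p-values of 0.042 and 0.0495 in limma. All 5 calls were lost without DRF ZT16 replicate 4, the highest library for each of them, without NRF ZT16 replicate 1 or without NRF ZT16 replicate 2. The count was 1 without NRF ZT16 replicate 3 and 2 without DRF ZT16 replicate 2, whereas median-of-ratios rescaling raised the count to 12, against 2.09% of all genes tested. Without the filter on low values it was 1. At ZT16 the 5 atrial markers summed to 644 to 2080 TPM under DRF, with a median of 1334, and to 236 to 4352 TPM under NRF, with a median of 450.0. Their median difference was 1.18, 0 of 5 were called, and their part in the members' values was not tested.

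At the other time points few members or none differed. At ZT4 the single call was Cox6b2, higher under DRF, against 0.332% of all genes tested that were higher. At ZT0, ZT8, ZT12 and ZT24 the limma count was 0 of 85, against 11.3%, 0.389%, 7.74% and 8.89% of all genes tested. At an unadjusted p under 0.05 these time points had 0, 1, 12 and 7 members, against 25.2%, 14.9%, 23.2% and 24.3% of all genes tested, and 11 of the 12 at ZT12 were higher under DRF. After median-of-ratios rescaling they had 0, 0, 4 and 2 calls, against 14.1%, 0.808%, 10.6% and 15.8%.

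When the libraries were matched by the feeding cycle instead of by light, DRF ZT0 was set against NRF ZT12 and so on for 6 times. At 1 or more of them 23 of 85 members differed, against 44.3% of all genes tested. At 8 h into the feeding window (DRF ZT8 against NRF ZT20) 5 members were lower under DRF, against 2.95% of all genes tested: Ndufb3, Ndufa1, Atp5k, Ndufb2 and Uqcrq. These food-matched and clock-matched comparisons share the NRF ZT20 libraries. At 4 h after the end of the feeding window (DRF ZT16 against NRF ZT4) 8 members were higher and 3 lower, against 3.54% and 19.4% of all genes tested. Without DRF ZT16 replicate 4, 7 of the 8 higher calls were lost, all but that of Cox6b2. At DRF ZT20 against NRF ZT8 7 were lower, against 21%. The counts were 3 higher at DRF ZT0 against NRF ZT12 (2.18% of all genes), 1 higher at DRF ZT4 against NRF ZT16 (3%) and 0 at DRF ZT12 against NRF ZT24, where 5.18% of all genes differed (6 members and 18% of all genes at an unadjusted p under 0.05, limma). These counts moved with the scale. After median-of-ratios rescaling 17 members were higher at DRF ZT16, against 10% of all genes tested, 2 were lower at DRF ZT20, against 9.99%, and 9 were higher at DRF ZT0, against 4.4%.

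Over the day as a whole, 1 of 85 members was higher under DRF, against 1.69% of all genes tested, and 5 were lower, against 24.4%. The member that was higher was Cox6b2, and those that were lower were Ndufa4l2, Cox4i2, Ndufb3, Uqcrq and Cox7a1. The median difference over the members was -0.02 and over all genes tested -0.05, and after median-of-ratios rescaling these were 0.05 and 0.004. This balance depends on the scale: after median-of-ratios rescaling 8 members were higher and 1 lower, against 5.83% and 7.38% of all genes tested. The calls that stood under both were Cox6b2 and Ndufa4l2. The other members called higher after rescaling were Atp5b, Atp5c1, Atp5h, Atp5s, Cox7a2, Sdha and Uqcrc1.

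Ndufa4l2 (chr10:127514967-127517154, plus strand, GRCm38) is a paralog of the complex IV subunit Ndufa4 that is known to respond to hypoxia. It ranged from 35.5 to 74.1 TPM around a median of 51.3 under DRF and from 44.1 to 89.7 TPM around a median of 63.6 under NRF, with overlap of the regimens. The difference over the day was -0.26 ± 0.05 (adjusted p = 0.000358, limma), and it was called without each library in turn. It fell from the light to the dark phase under both regimens, with log2 amplitudes of 0.25 ± 0.06 under NRF and 0.28 ± 0.06 under DRF, and the test of different rhythm gave an adjusted p of 0.834 in limma. Its partner Ndufa4 averaged 1297 TPM under NRF and 1313 TPM under DRF.

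Cox4i2, the isoform of subunit 4 known from lung and vascular cells and from its response to low oxygen, had a mean of 33.7 ± 6.27 TPM under NRF and 29.9 ± 5.34 TPM under DRF (SD, n = 28), and differed by -0.17 ± 0.06 (adjusted p = 0.0249, limma). The call was lost after median-of-ratios rescaling, at 0.141. In the heart both genes are known chiefly from mural cells of small vessels. The 5 markers of pericytes and smooth muscle summed to 594 to 852 TPM under DRF and 668 to 1091 TPM under NRF, and 4 of 5 were lower under DRF over the day, as were 4 of 5 endothelial and 4 of 5 fibroblast markers and 24.4% of all genes tested. Among the mural markers, Pdgfrb differed by -0.24 ± 0.05, Kcnj8 by -0.18 ± 0.04, Rgs5 by -0.17 ± 0.04 and Acta2 by -0.25 ± 0.08. After median-of-ratios rescaling 2 of the 5 mural, 1 of the 5 endothelial and 2 of the 5 fibroblast markers were lower. The part of such cells in the Ndufa4l2 and Cox4i2 values was not tested.

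Cox6b2, the testis form of subunit 6b, was a low gene with a mean of 5.82 ± 1.09 TPM under NRF and 6.87 ± 1.39 TPM under DRF (SD, n = 28), and a median of 114.5 reads per library. Its difference over the day was 0.19 ± 0.06 (adjusted p = 0.0153, limma). That call passed without each library in turn. It was lost without replicate number 3, without ZT4 and without ZT16, with adjusted p-values of up to 0.273 in limma. At ZT4 the gene read 4.95, 9.9, 7.94 and 7.51 TPM under DRF and 3.9, 4.51, 4.56 and 4.42 TPM under NRF, with no overlap (difference 0.65 ± 0.15, adjusted p = 0.0209, limma). Without DRF ZT4 replicate 2, the highest library, the ZT4 call was lost with an adjusted p of 0.130.

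Ratios between isoforms do not depend on how a library is scaled, so they were compared for 8 pairs in a test added after the data had been seen, by permuting the regimen within each ZT (100000 permutations, two-sided, adjusted over the 8 pairs). Cox7a2, the liver form of subunit 7a, made up 25.3% ± 1.95 of the summed TPM of Cox7a2 and Cox7a1 under NRF and 27.8% ± 1.99 under DRF (SD, n = 28). The log2 ratio was higher under DRF at 7 of 7 ZTs, by 0.18 on average (permutation p = 1e-05, the smallest these permutations can give; adjusted p = 8e-05). Cox8a, the form of subunit 8 found in most tissues, made up 21.1% ± 1.66 of its pair with Cox8b under NRF and 22% ± 1.44 under DRF, higher at 5 of 7 ZTs (difference in log2 ratio 0.08, adjusted permutation p = 0.0184). In both pairs the share of the muscle form was lower under DRF, and the libraries of the regimens overlapped. Of the 5 skeletal muscle markers 2 were listed, and 1 of them, Acta1, skeletal alpha actin, was lower under DRF, with a difference of -0.63 ± 0.13 (adjusted p = 0.000528, limma). The other, Mylpf, differed by 0.01 ± 0.07 and did not pass (adjusted p = 0.905, limma). Acta1 had a mean of 298.7 TPM and Mylpf 2.21 TPM, so the sum of the pair is nearly all Acta1. After rescaling 1 of the 2 was lower. The pair summed to 93.5 to 483 TPM under DRF, with a median of 240.2, and to 195 to 653 TPM under NRF, with a median of 339, and its part in the isoform shares was not tested.

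Ndufa4l2 made up 4.61% ± 0.89 of its pair with Ndufa4 under NRF and 3.86% ± 0.75 under DRF, lower at all 7 ZTs (difference in log2 ratio -0.27, adjusted permutation p = 8e-05). Cox4i2 against Cox4i1 was also lower at all 7 ZTs (-0.16, adjusted permutation p = 0.013), and Cox6b2 against Cox6b1 was higher at 6 of 7 (0.22, adjusted permutation p = 0.00152). The ratio of Cox6a1 to Cox6a2 did not pass (difference -0.07, adjusted permutation p = 0.126). The c-ring genes Atp5g1, Atp5g2 and Atp5g3, which encode the same mature protein, gave the smallest differences: Atp5g1 was 23.8% of its pair with Atp5g3 under either regimen (n = 28 each), with a difference in log2 ratio of -0.0010 (adjusted permutation p = 0.966), and Atp5g2 against Atp5g3 differed by 0.01 (adjusted permutation p = 0.776). Cox7a2l, a relative of Cox7a2 that joins complexes III and IV, averaged 525 ± 35.2 TPM under NRF and 521 ± 43 TPM under DRF.

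**Figure D5:**
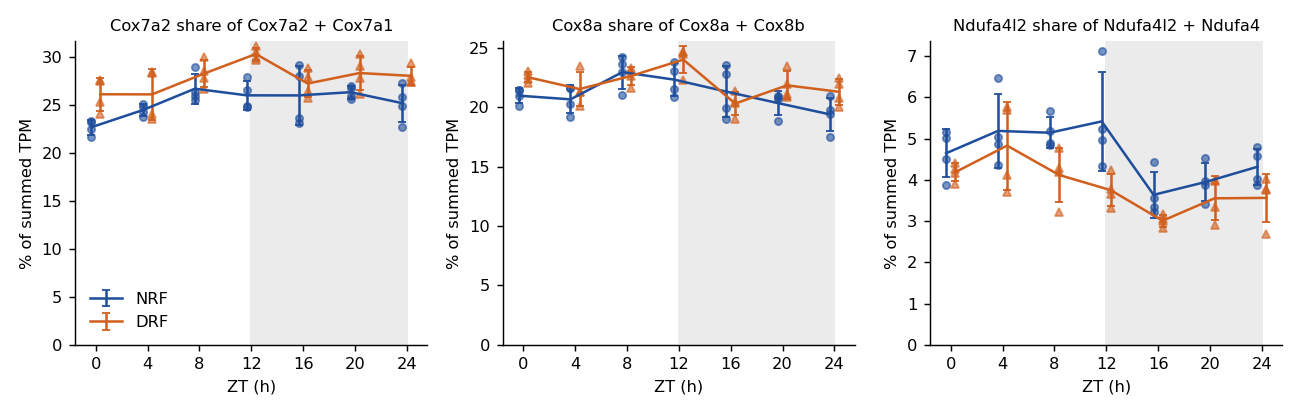
Share of the summed TPM of an isoform pair, in percent, held by Cox7a2 (against Cox7a1), Cox8a (against Cox8b) and Ndufa4l2 (against Ndufa4), against ZT in hours under NRF (circles) and DRF (triangles). Points are libraries, lines join group means and bars are the SD (n = 4); the Cox7a2 share is higher under DRF and the Ndufa4l2 share lower under DRF at each of the 7 ZTs.

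Other genes of the pathway were counted from lists. Of 45 assembly factors tested, which build the complexes but are not part of them, 16 differed in rhythm between regimens, against 27.7% of all genes tested, and 18 were lower under DRF at ZT20, against 11.4%. The smallest p was that of Ndufaf4, an assembly factor of complex I with a mean of 39.4 TPM, which peaked at ZT21.6 under NRF and at ZT8.27 under DRF (adjusted p = 1.4e-08, limma). Tmem126b, of the complex I membrane arm assembly, was next (adjusted p = 1.5e-05, limma). Of 16 regulators of respiratory genes, 7 differed in rhythm, against the same 27.7%, led by Tfb2m, a transcription factor of mitochondria, and Esrrg, an estrogen-related receptor (adjusted p = 0.00595 and 0.0175, limma). Of 9 electron carriers and entry points 1 differed, Etfdh, which passes electrons from fatty acid oxidation to ubiquinone (adjusted p = 0.00218, limma), while Cycs, cytochrome c, did not pass (0.0588). Of 13 mitochondrially encoded partners 0 differed in rhythm in limma, with a smallest adjusted p of 0.0905, for mt-Co3. At ZT20 3 of the 13 were higher under DRF, against 3.4% of all genes tested.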

How the data were processed

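The authors sequenced polyadenylated RNA from mouse hearts, aligned reads with HISAT2 2.0.5 to mm10 and counted them with featureCounts 1.5.0-p3, per the labels. The annotation and the use of strand are not given in the sources used here. The deposited values, which the authors name TPM, were not linear: each was a library constant times the log2 of 1 plus scaled reads, divided by gene length. Inverting this with GENCODE M21 lengths (832 of 22864 lengths were searched for, 797 of them on chromosomes 17 to 19) gave whole reads, within 0.1 read, for 99.9996% of 1192402 values. Among the members, the lengths of Ndufv1, Ndufv3, Ndufa7, Ndufs8, Cox7a2l and Cox8a were searched for. On simulated reads 99.9957% were returned exactly. Reads per library ranged from 29527844 to 53421005. Without molecular identifiers the recovered reads are not independent molecules. TPM was recomputed from these reads, and a difference is on the log2(TPM + 1) scale, which understates changes of low genes.

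Genes averaging 1 TPM or more were fitted with limma 3.58.1 in R 4.3.3 (trended variance), and p-values were adjusted over 13869 genes by Benjamini-Hochberg at 0.05. Rhythm within a regimen was fitted on its 28 libraries with a 24 h cosine and sine. The difference in rhythm, the mean difference and the contrasts of group means were fitted on all 56 libraries. In data simulated for this fit on 13820 genes, 79.6% of rhythm differences of amplitude 0.4 and 38% of amplitude 0.2 were called, as were 59.2% of ZT20 differences of -0.6 and 28.6% of -0.3. Named were, per complex, the 3 members with the smallest p for a different rhythm and the 2 with the largest mean difference, the isoform families, members called against the majority, members below the filter and, for each pathway list, the 2 genes with the smallest p. Other genes named at single time points were chosen after their values were seen. Members and lists were chosen with earlier results of these data known. Groups and replicate numbers came from the sample labels. Alternatives were other scalings, pseudocounts, filters and thresholds, ZT as a factor, a replicate block, and leaving out each library, replicate number and ZT. Some items are not reported by name here.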

Additional observations from a re-analysis of the deposited data

Results flagged for a closer look

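Of 66 groups of 4 libraries tested for a library far from the others, 3 had one, about what chance gives at 1 in 20. Sdha stood at 837.7 TPM in NRF ZT20 replicate 2, above the other 3 libraries. Atp5g1 stood at 610.1 TPM in DRF ZT16 replicate 4, 1 of 3 libraries without which no member was called at ZT16. The share of mitochondrially encoded subunits was 30.8% of TPM in 1 NRF ZT24 library, the lowest of its group. The time course of Ndufa5 differed between regimens by the test of the difference itself (adjusted p = 0.0286, limma), and so did that of 17 members when ZT was a factor.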

How the results depend on the processing

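With 1 library left out at a time, the members rhythmic under NRF (27) numbered 24 to 34, under DRF (4) 3 to 7 and under both (1) 1 to 2; those with a different rhythm (1) 0 to 10, with a different mean (6) 4 to 7, at clock-matched ZTs (38) 17 to 43 and at food-matched times (23) 17 to 27. Without all libraries of a replicate number the ranges were 7 to 31, 1 to 4, 0 to 1, 0 to 1, 2 to 7, 9 to 40 and 8 to 22. At an adjusted p under 0.01 the counts were 10 (NRF), 2 (DRF), 0 (different rhythm), 2 (mean), 14 (clock-matched) and 9 (food-matched). With ZT as a factor they were 11 (NRF), 16 (DRF), 7 (both) and 17 (different). Under NRF 12 were left without ZT0, 17 without ZT8, 12 without ZT12 and 17 without ZT20. Under DRF there were 1 without ZT16 and 8 without ZT20, and under both 0 without ZT16, 3 without ZT20 and 3 without ZT24. A different rhythm had 5 without ZT0, 2 without ZT4, 6 without ZT8, 0 without ZT12, 5 without ZT16 and 3 without ZT20. A different mean had 2 without ZT8, 3 without ZT12 and 10 without ZT16. Median-of-ratios rescaling gave 7 under DRF and 9 with a different rhythm, TPM over nuclear genes 4 with a different rhythm and 22 clock-matched, and the deposited values with no transform 3 with a different rhythm, 2 in the mean, 14 clock-matched and 14 food-matched. The causes were not tested.

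Deviations of same-numbered libraries had a median correlation of 0.012, against -0.00064 for libraries with different numbers. Same-numbered pairs ranged from -0.4 to 0.57, and 92 of 364 were over 0.1. In all, 21 of 56 libraries correlated best with their own number. The labels do not say whether a replicate number marks a batch. With the replicate block 2 members had a different rhythm, and with the block and rescaling together, an alternative chosen after seeing the data, 9 did and 7 were rhythmic under DRF. No other count moved by over 1.5 times with the block.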

Other observations

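Ndufa12, an accessory subunit of complex I, was the least reproducible member between replicates. It ranged from 72.6 to 366 TPM over the 56 libraries, with at least 1800 reads in each, and its SD within groups was 0.48 on the log2(TPM + 1) scale, against a median of 0.12 over the members. Its spread was at the 96.8 percentile of all genes tested.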
